A study of Mus musculus with 82 samples.

Results

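The clustered histone genes encode the core histones H2A, H2B, H3 and H4 and the linker histone H1 that package newly replicated DNA. Members were the probe sets with at least 1 annotated symbol beginning with H1f, H2ac, H2bc, H3c or H4c and a digit, or with the older Hist names. The rule found 54 of the 24922 probe sets, of which 30 had 1 symbol and 24 had several. By class there were 8 probe sets for H1, 6 for H2A, 15 for H2B, 13 for H3 and 11 for H4, and 1 was shared by H2bc6 and H1f4.

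Most of these genes lie in a large cluster on mouse chromosome 13 and a smaller one on chromosome 3. They are transcribed mainly in S phase, through the coactivator Npat. Their mRNAs carry no introns and end in a stem-loop bound by Slbp instead of a poly(A) tail. Naive CD4 T cells are resting cells, in which little DNA is replicated. The rule also took in H1f7, H1f8 and H1f10, single H1 genes outside both clusters (chromosomes 15 and 6), and H1f6, H2ac1 and H2bc1, which are known as testis forms.

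The data were 82 Affymetrix ST1.0 arrays of naive CD4 T cells from 40 groups of inbred mouse strains, all male and 6 weeks old by the sample labels (5 weeks in the series text). The cells were splenocytes sorted as CD3+CD4+CD62L+, with cells bearing surface markers of other types excluded, and each array held RNA of a pool of 2 to 3 mice. C57BL/6J had 5 arrays, SWR/J had 1 and the other 38 groups had 2. The C57BL/10J arrays carry the replicate numbers 1 and 3, and 4 strains (JF1/Ms, MSM/Ms, CAST/EiJ and PWD/PHJ) derive from subspecies other than M. m. domesticus. The background label reads CBA/CaJ on the arrays with C57BR in their title and DBA/1LacJ on those with DBA2, so both were kept as groups named by title. The remaining groups, spelled as labelled, appear on the axes of the plots.

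On every array the T cell markers (7 of 9 measured) averaged between 11.84 and 12.30 in log2 intensity, against the series text, which names granulocytes in one sentence. On replicate 2 of PL/J, B cell markers stood 2.83 above their mean over arrays (log2), erythroid markers 1.51 and neutrophil markers 1.72. On replicate 2 of A/J, B cell markers stood 1.48 and erythroid markers 1.39 above. The median histone deviation was 0.02 on that PL/J array and 0.21 on that A/J array. Array medians ran from 102 to 142 in intensity.

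Promoters of the classes carry different elements. The windows printed here, to show one element of each class, are the 150 bases before the start of 6 members that recur below, 5′ to 3′ on the gene's strand (RefSeq, GRCm38.p6), with the matches of 5 motifs on either strand in capitals, each spelled out where it is first named. A CCAAT box on the opposite strand reads ATTGG. H4c4 (chr13:23581418-23581567, plus strand) and H4c6 (chr13:23551669-23551818, minus strand) hold the core of the H4 site II element, GGTCCG. H4c4 also has a CCAAT box on the opposite strand and a TATA box, TATAAA.
H4c4: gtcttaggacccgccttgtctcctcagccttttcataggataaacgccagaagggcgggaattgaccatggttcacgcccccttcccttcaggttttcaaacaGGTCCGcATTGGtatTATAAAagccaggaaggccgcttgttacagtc
H4c6: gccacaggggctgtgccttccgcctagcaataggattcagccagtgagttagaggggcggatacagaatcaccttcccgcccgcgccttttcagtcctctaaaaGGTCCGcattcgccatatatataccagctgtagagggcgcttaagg

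H2bc8 (chr13:23571250-23571399, plus strand) and H2bc18 (chr3:96269550-96269699, plus strand) hold the octamer ATTTGCAT, a binding sequence of Pou2f1, and the CCAAT box, and H2bc8 also TATAAA.
H2bc8: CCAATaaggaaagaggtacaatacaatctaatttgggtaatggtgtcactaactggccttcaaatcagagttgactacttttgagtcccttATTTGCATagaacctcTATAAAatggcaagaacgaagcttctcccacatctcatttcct
H2bc18: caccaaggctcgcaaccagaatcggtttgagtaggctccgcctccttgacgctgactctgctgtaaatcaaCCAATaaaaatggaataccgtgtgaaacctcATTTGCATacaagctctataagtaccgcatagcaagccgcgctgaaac

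H1f2 (chr13:23738657-23738806, plus strand) and H1f5 (chr13:21780626-21780775, minus strand) hold the H1 box AAACACA and the CCAAT box, in H1f5 on both strands, and H1f5 also TATAAA.
H1f2: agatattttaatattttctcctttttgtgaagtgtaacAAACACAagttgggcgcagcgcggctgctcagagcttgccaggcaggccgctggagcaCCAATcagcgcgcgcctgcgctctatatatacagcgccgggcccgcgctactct
H1f5: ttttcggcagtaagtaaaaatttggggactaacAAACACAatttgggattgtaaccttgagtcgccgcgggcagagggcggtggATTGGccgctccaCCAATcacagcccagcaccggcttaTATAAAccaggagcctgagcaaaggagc

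Of the 66 symbols that the rule matched, 61 had a promoter in the table, in 62 rows, and motifs were searched in the 250 bases before each start on both strands. GGTCCG was found in 8 of 11 H4 promoters, against 6.72% of all 32851 promoters. ATTTGCAT was found in 7 of 15 H2B and 6 of 17 H2A promoters, against 1.60% of all, and in none of the H1, H3 and H4 promoters. AAACACA was found in 5 of 9 H1 promoters, against 6.25%. CCAAT was found in 15 of 15 H2B, 17 of 17 H2A, 8 of 10 H3, 7 of 9 H1 and 3 of 11 H4 promoters, against 33.8%. TATAAA was found in 28 of the 62, against 12.4%. These are matches of letters, and binding was not measured.

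The first question was whether histone probe set signals differ between strains by more than between replicate pools. They did for most members, and H4c4 varied the most. The limma F-test over 40 group means, with Benjamini-Hochberg adjustment over all probe sets and a threshold of 0.05, called 49 of the 54 members (90.7%), where 47.6% of all probe sets were called. The 5 that did not pass were H2bc22 (adjusted p = 0.611), the testis form H1f6 (0.677), and H1f7 (0.300), H1f8 (0.568) and H1f10 (0.199), the 3 outside the clusters. In these bulk RNA samples, fewer cells that carry a transcript and less transcript per cell cannot be told apart. Probe sequences were not compared between strains, so a strain difference in how the probes bind cannot be told apart from these either. The many probe sets shared by a class follow each other closely (lowest correlation over arrays 0.989 among 10 H3 sets, 0.984 among 6 H2B sets, 0.996 among 4 H4 sets and 0.975 between 2 H2A sets), so they are not separate evidence. Of the 30 members with 1 symbol, 25 passed.

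Histone probe sets were noisier than others between replicates and varied more between strains. The median replicate SD was 0.26 for members and 0.16 over all probe sets (log2), and 53 of 54 members lay above the latter. The median SD of strain means was 0.37 for members and 0.14 over all. The intraclass correlation, the portion of the total variance found between strains, had a median of 0.549 for members and 0.262 over all. The SD of strain means exceeded the replicate SD in 46 members (43.8% of all probe sets). Among probe sets with a mean above the overall median, the members had a replicate SD of 0.27 against 0.15 and a strain SD of 0.38 against 0.17. There the median intraclass correlations lay closer together, at 0.568 for members and 0.468 for all. By class, the median intraclass correlation was 0.193 for H1, 0.487 for H2A, 0.541 for H2B, 0.574 for H3 and 0.731 for H4. Over the members with 1 symbol the order differed, at 0.193 for 8 H1, 0.576 for 4 H2A, 0.614 for 9 H2B, 0.311 for 3 H3 and 0.567 for 6 H4 probe sets.

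**Figure D1:**
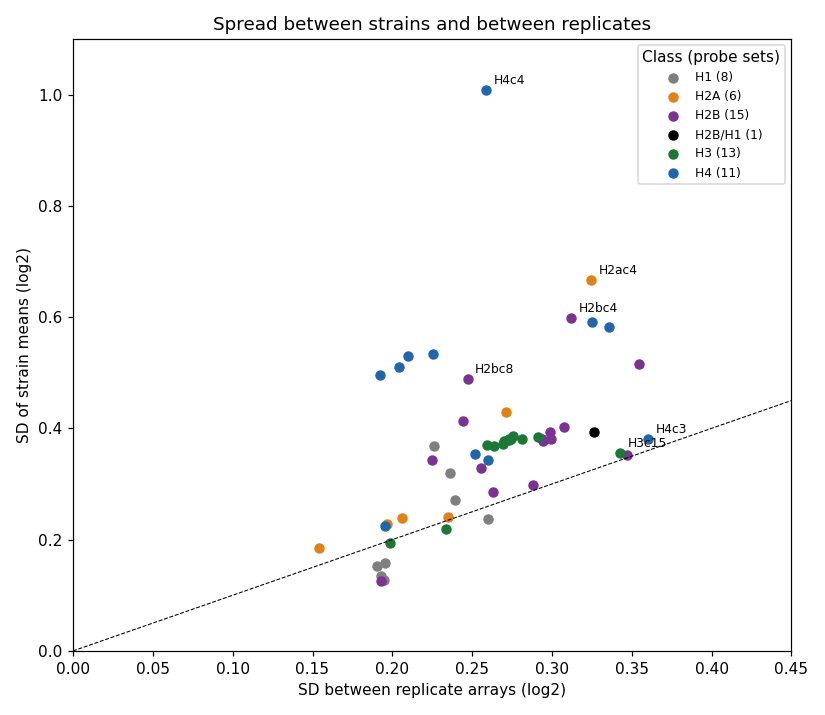
SD between replicate arrays (x) against the SD of 40 strain means (y), both in log2, for 54 histone probe sets coloured by class; the dashed line marks equal values. H4c4 stands highest at 1.01, and 46 points lie above the line.

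Mean intensity over arrays ran from 57.1 (H1f6) to 401 (H1f2) among H1 probe sets, from 17.0 (H2ac8) to 4893 (a set shared by 20 symbols) for H2A and from 82.6 (H2bc4) to 3199 (a set shared by 15 symbols) for H2B. For H3 it ran from 35.8 (H3c15) to 3498 (a set shared by 12 symbols) and for H4 from 72.6 (H4c8) to 4423 (H4c4). Probes differ in how well they bind, so these values do not rank the genes.

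Among the H4 genes, which encode one and the same core histone, H4c4 had the widest strain range. Its 2 arrays read 921 and 1516 in MSM/Ms, 1562 and 1042 in JF1/Ms, 1343 and 1554 in SEA/GnJ, and 1527 and 1475 in P/J. At the other end they read 8817 and 8832 in AKR/J, 9060 and 8798 in 129S1/SvImJ, and 9032 and 11351 in MRL/MpJ. The lowest and highest groups do not overlap, and their means, 1182 in MSM/Ms and 10125 in MRL/MpJ, differ 8.57-fold (adjusted p = 4.417e-23 in the limma F-test, intraclass correlation 0.935). Strain means fell on both sides of a gap of 0.59 log2 units between NZB/BINJ (3413) and BALB/cByJ (5133), with 15 groups below and 25 above. The next widest gap was 0.31. The groups below include 3 of the 4 strains of other subspecies, MSM/Ms, JF1/Ms and PWD/PHJ, but not CAST/EiJ.

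The 4 probe sets shared by 11 H4 genes, H4c4 among them, had intraclass correlations from 0.834 to 0.858. Those probe sets and H4c4 hold the 5 highest intraclass correlations of the members. H4c6 had strain means from 186 in MSM/Ms to 969 in MRL/MpJ (adjusted p = 1.094e-09). The probe set shared by H4c17 and H4c11 had its lowest mean in P/J and its highest, 165, in MRL/MpJ (adjusted p = 4.307e-09). H4c14, of the chromosome 3 cluster, ran from 1441 in MSM/Ms to 4193 in MRL/MpJ. H4c3 differed in its order, with its lowest mean in BALB/cByJ (157) and its highest in C57BL/10J (538), and had the largest replicate SD of all members, 0.36.

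Among H2B genes, H2bc4 had its own order of strains. It was lowest in SM/J (39.2 and 37.3) and LP/J (53.3 and 29.0), and highest in C57BLKS/J (216 and 250), C57BL/10J (179 and 193) and C57BL/6J, whose 5 arrays read 139, 163, 230, 178 and 137. Its intraclass correlation was 0.778 (adjusted p = 2.154e-11). The 3 groups whose names begin with C57BL thus held the top of its order, and their arrays overlap. The arrays of 129S1/SvImJ (134 and 200) and AKR/J (169 and 139) overlap those of C57BL/6J as well. H2bc8 had its highest mean in 129S1/SvImJ (221) and its lowest in JF1/Ms (68.1, adjusted p = 8.112e-11). On chromosome 3, H2bc18 ran from 172 in PL/J to 639 in NZW/LacJ and H2bc21 from 62.4 in CAST/EiJ to 161 in BTBR T+ tf/J. H2bc3 ran from 134 in BALB/cByJ to 695 in MRL/MpJ, with a large replicate SD of 0.35. H2bc14 had the same replicate SD, and H2bc22, which did not pass the F-test, had its highest mean 1.62-fold above its lowest.

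**Figure D2:**
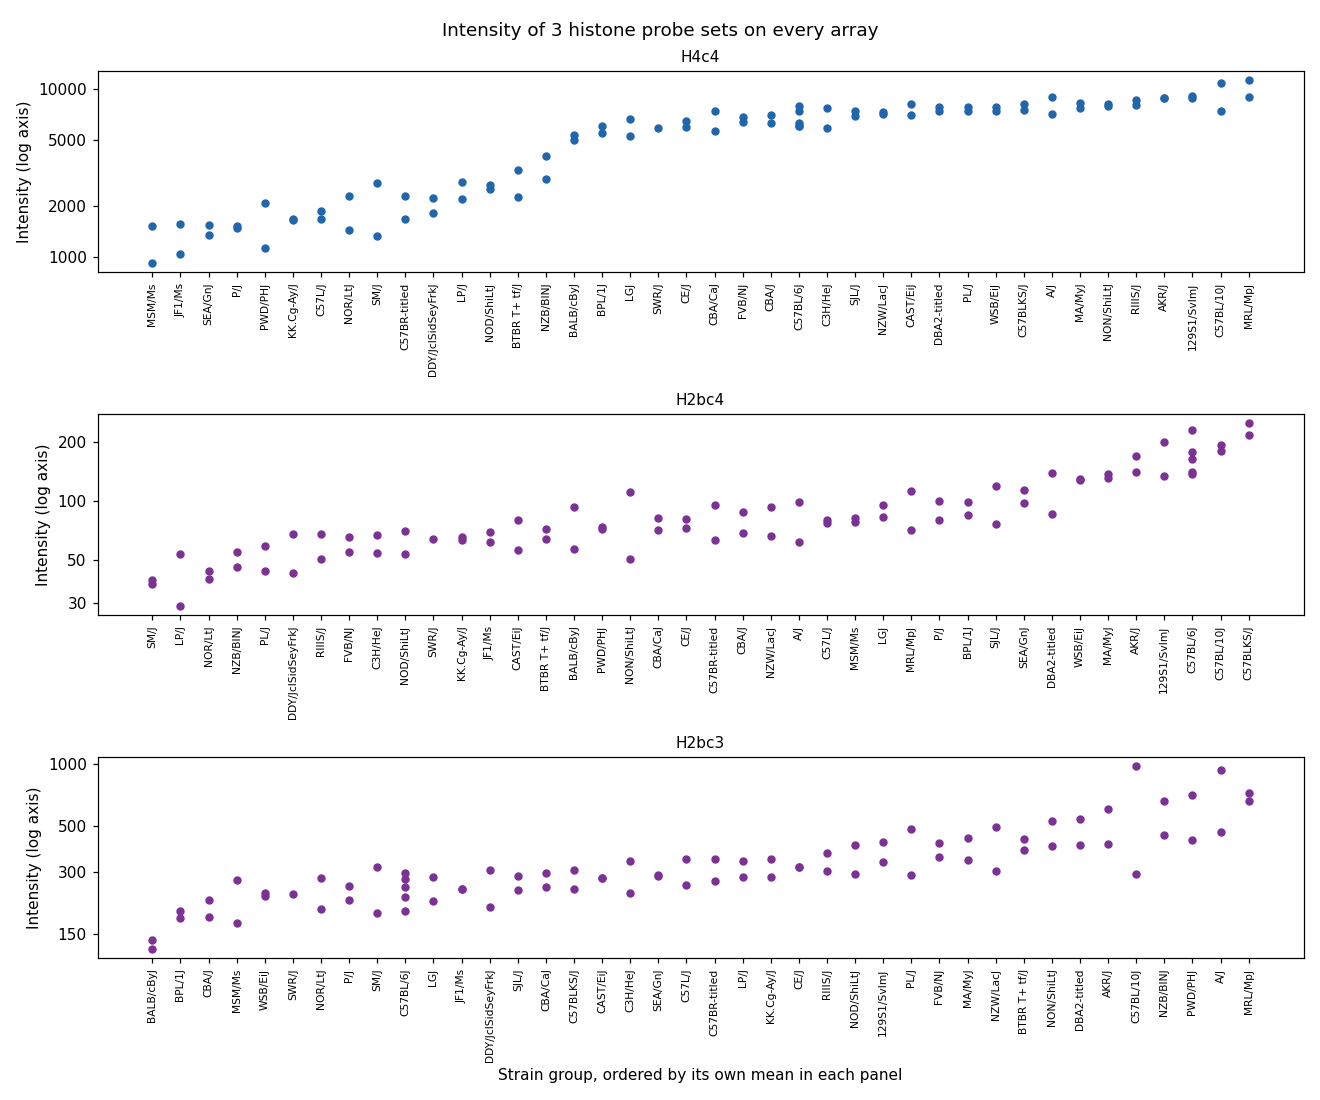
Intensity (log axis) of H4c4, H2bc4 and H2bc3 on each of 82 arrays, 1 point per array, with the 40 groups ordered by their own mean in each panel. H4c4 runs from 921 to 11351 with a step between NZB/BINJ and BALB/cByJ, H2bc4 is highest in C57BLKS/J, C57BL/10J and C57BL/6J, and the points of C57BL/10J for H2bc3 lie far apart.

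Of the H2A genes, H2ac4 varied most, at dim intensities. Its strain means ran from 10.0 in DDY/JclSidSeyFrkJ to 58.8 in A/J (intraclass correlation 0.783, adjusted p = 1.277e-11). The A/J arrays read 62.4 and 55.4 and those of DDY/JclSidSeyFrkJ 8.67 and 11.5, so these groups do not overlap. H2ac15 ran from 578 in BALB/cByJ to 2082 in MRL/MpJ. Both shared H2A sets, annotated also to the replacement histone H2ax, had intraclass correlations of 0.483 and 0.477.

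The H3 signal was read mainly by 10 probe sets shared by 12 genes, with intraclass correlations from 0.539 to 0.593. On one of them, the BALB/cByJ arrays read 1714 and 1680, those of MRL/MpJ 5364 and 7613, and those of C57BL/6J 3444, 3185, 2948, 2837 and 3476. H3c15 was dim, at 19.9 in LP/J to 55.9 in 129S1/SvImJ, with a replicate SD of 0.34. Of the linker histones, H1f2 ran from 199 in PL/J to 674 in C57BL/10J (adjusted p = 1.236e-07) and H1f5 from 137 in BALB/cByJ to 421 in MRL/MpJ (adjusted p = 1.375e-05).

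**Figure D3:**
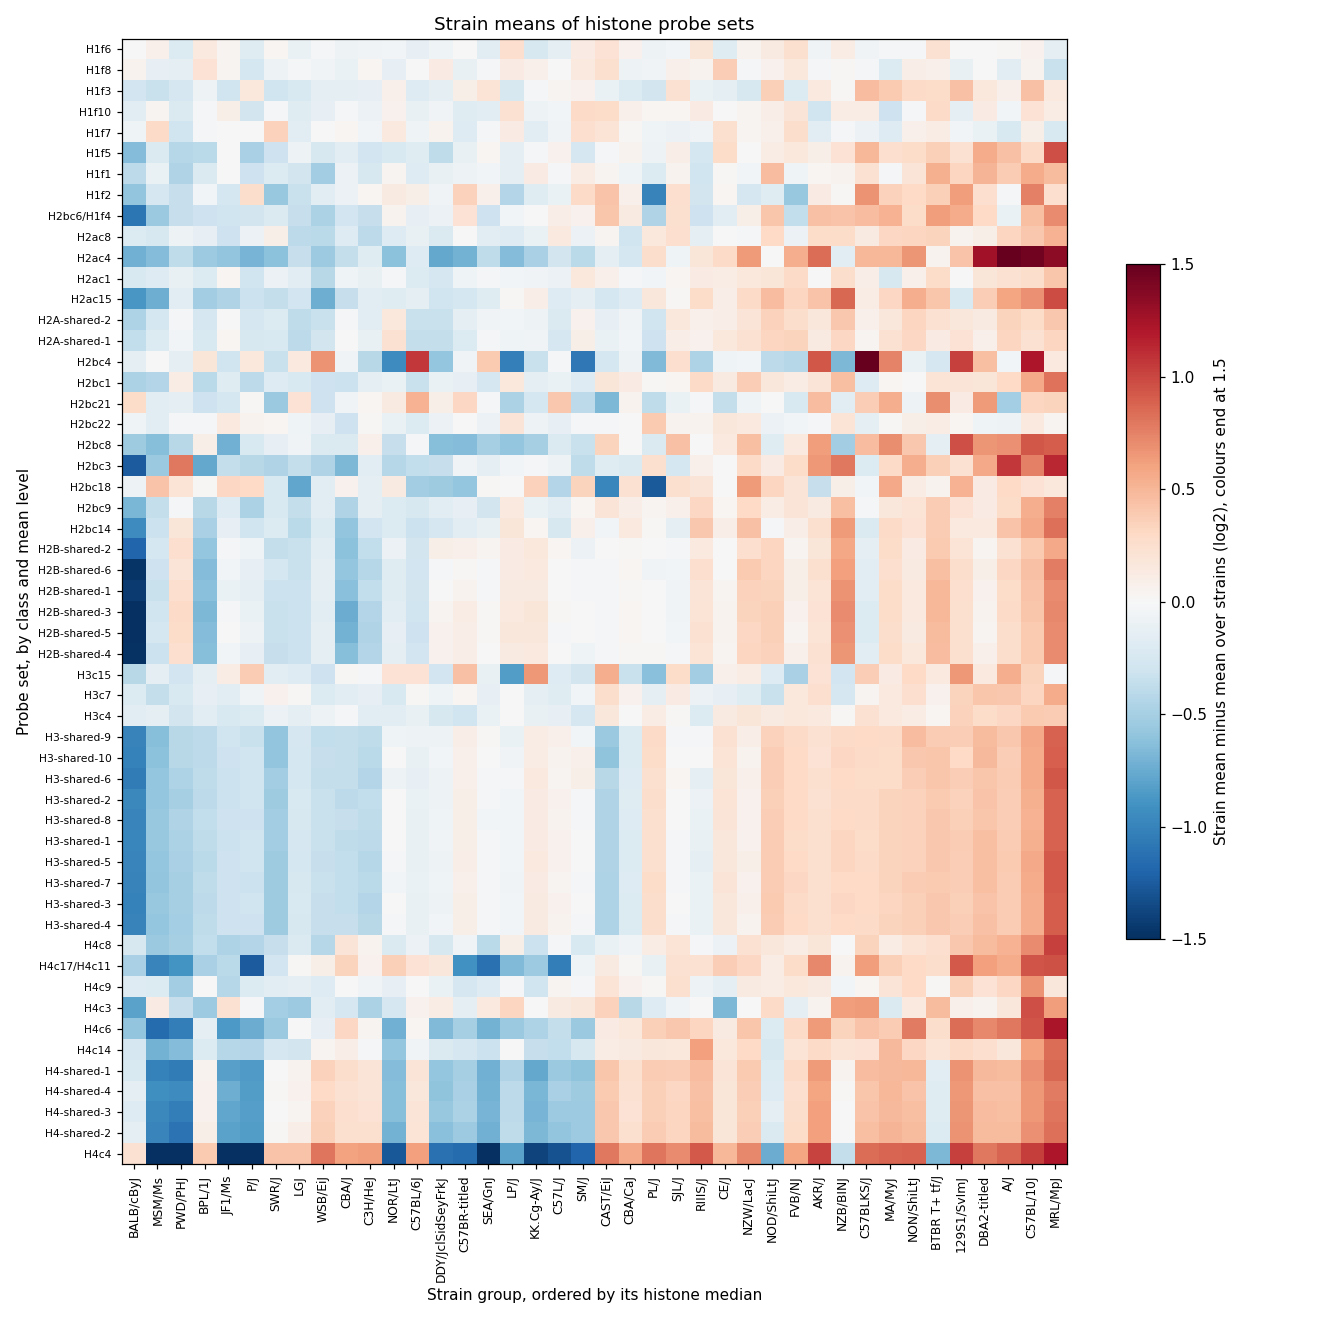
Strain means of 54 histone probe sets (rows, by class and then by mean level) in 40 groups (columns, ordered by the median over members), as the difference from the mean over strains in log2; colours end at 1.5, and probe sets annotated to several genes of a class are called shared. MRL/MpJ and C57BL/10J are red in most rows, BALB/cByJ is darkest blue in the shared H2B rows, and MSM/Ms and PWD/PHJ are darkest blue in the H4 rows.

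A level for the whole set was described by the median over members of each array's deviation from the mean over arrays. It ran from -0.61 on replicate 2 of BALB/cByJ to 1.07 on replicate 2 of MRL/MpJ. Replicate 3 of C57BL/10J followed at 1.03, and the third highest array, replicate 1 of A/J, stood at 0.52. By strain, the lowest medians were those of BALB/cByJ (-0.51), MSM/Ms (-0.34), PWD/PHJ (-0.32), BPL/1J (-0.31) and JF1/Ms (-0.29). The highest were those of 129S1/SvImJ (0.34), DBA2-titled (0.34), A/J (0.35), C57BL/10J (0.55) and MRL/MpJ (0.76). Both arrays of a strain lay within 0.2 of each other (median difference over members) in 24 strains, but 0.5 or more apart in 4: C57BL/10J (1.00), SM/J (0.78), NOR/LtJ (0.60) and PWD/PHJ (0.50). The array medians had a replicate SD of 0.21 and a strain SD of 0.27. Replicate 2 of MRL/MpJ was the highest of all 82 arrays in 26 members and replicate 3 of C57BL/10J in 19. Replicate 1 of MSM/Ms was the lowest in 23. The matching shares of all probe sets are not given here, and shared sets of a class count several times.

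**Figure D4:**
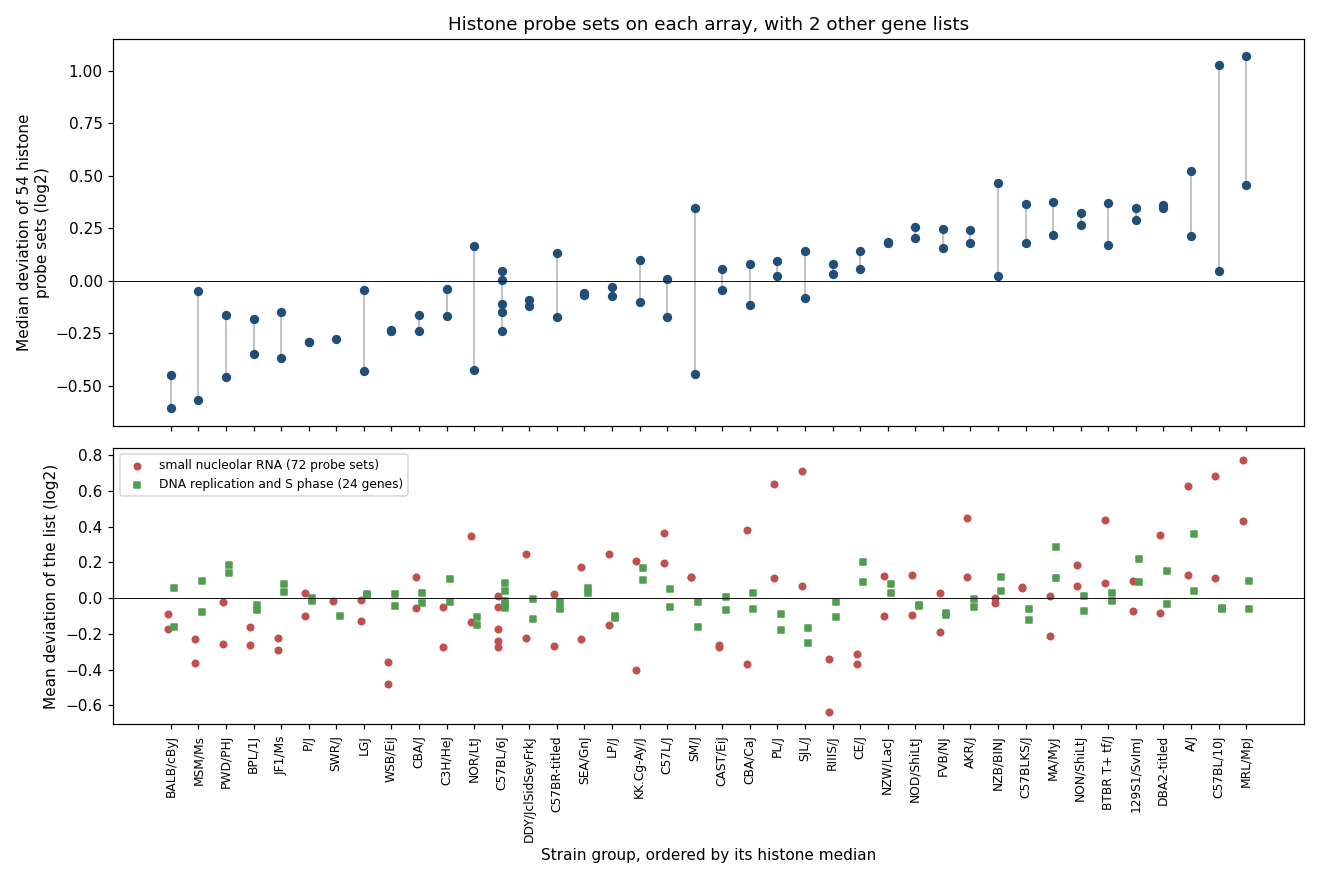
Upper panel: median deviation of the 54 histone probe sets from their mean over arrays (log2), 1 point per array, with grey lines joining arrays of a group. Lower panel: mean deviation of 72 small nucleolar RNA probe sets (circles) and 24 S phase genes (squares) on the same arrays. Replicate 3 of C57BL/10J and replicate 2 of MRL/MpJ stand near 1 in the upper panel and at 0.69 and 0.77 for small nucleolar RNA. In the latter, replicate 2 of SJL/J stands at 0.71, replicate 2 of PL/J at 0.64 and replicate 1 of A/J at 0.625. The histone medians of these arrays are 0.14, 0.02 and 0.52.

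The C57BL/10J pools differed from each other in nearly all histone genes. On replicate 3, 51 of 54 members read higher than on replicate 1, with a median difference of 1.00 log2 units, while 48.4% of all probe sets did, with a median of -0.01. At least a 2-fold higher value was seen in 26 members (48.1%) and in 81 probe sets of all (0.325%), and no member was 2-fold lower. H4c3 read 271 on replicate 1 and 1068 on replicate 3, a ratio of 3.94. H2bc3 read 293 and 984, and H2bc14 602 and 1813. H2ac4 read 26.9 and 80.4, H4c6 463 and 1374, and H2bc18 298 and 771. H4c8 read 74.4 and 188, and H2bc1 93.0 and 229. The 3 members lower on replicate 3 were H3c15 (55.2 and 36.2), H1f8 (67.5 and 52.3) and H1f7 (150 and 119), of which the latter 2 lie outside the clusters. H2bc4 read nearly the same, 179 and 193.

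Small nucleolar RNAs, another class of RNA without a poly(A) tail, were higher too: 58 of 72 probe sets read higher on replicate 3, with a median difference of 0.77. Genes of S phase were split, with 12 of 24 higher and a mean deviation of -0.06 on replicate 1 and -0.05 on replicate 3. Of the mitosis genes 12 of 19 were higher (mean deviation 0.08 and 0.11), of the histone transcription and mRNA end processing genes 5 of 15, of the histone chaperones 4 of 16 and of the replacement histones 7 of 8. B cell markers had mean deviations of 0.00 and -0.07, erythroid markers -0.01 and 0.05, neutrophil markers -0.08 and 0.11, and T cell markers -0.05 and -0.16. CD8 T cell markers (2 genes) stood at -0.06 and 0.24, NK cell markers at 0.09 and 0.20 and myeloid markers at -0.02 and -0.03. The part of any of these in the histone difference was not tested.

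**Figure D5:**
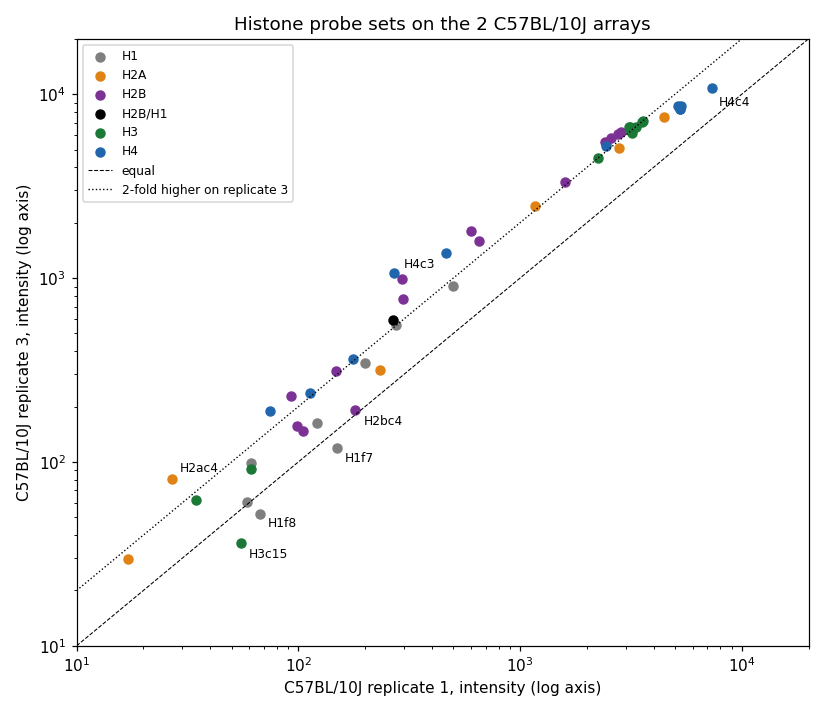
Intensity of 54 histone probe sets on C57BL/10J replicate 1 (x) and replicate 3 (y), log axes, coloured by class; dashed, equal values; dotted, a 2-fold higher value on replicate 3. Of the points, 51 lie above the dashed line and H3c15, H1f7 and H1f8 below it.

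Against the mean of the other 39 groups, C57BL/10J had 19 members higher and 0 lower in the limma contrast, where 1.84% of all probe sets were higher and 2.82% lower. The largest differences past the threshold were those of H2ac4 (46.5 against 16.6, difference 1.49 ± 0.22 SE in log2), H2bc4 (186 against 78.4, 1.25 ± 0.21), H4c4 (8945 against 4291, 1.06 ± 0.18), H4c3 (0.99 ± 0.24), the H4c17 and H4c11 set (0.97 ± 0.22) and H4c6 (0.97 ± 0.22). All 54 members lay above 0, with a median of 0.56, against 51% of all probe sets. Of the small nucleolar RNA probe sets 2 of 72 were higher and 1 lower (median 0.42), and 0 of 24 S phase genes were called. Of 19 mitosis genes 1 was higher, Top2a (0.58), and of 7 T cell markers 1 was lower, Lef1 (-0.25). Of 9 myeloid markers 1 was higher and 1 lower. What these contribute to the histone difference was not tested. Without replicate 3, 1 member was called, H2bc4 (1.19, adjusted p = 0.0164 with limma). A group left with 1 array in this way, here and in the strains described next, is assumed to vary like the other groups, whose replicates alone then give the spread. H4c3 then stood at 0.01 and H2ac4 at 0.70 (adjusted p = 0.252). Without replicate 1, 47 members were called.

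C57BL/6J is a close relative of C57BL/10J and has the most arrays. Against its 5 arrays, 15 members were higher in C57BL/10J and 0 lower (0.465% and 2.02% of all probe sets). They included H2ac4 (1.65 ± 0.25), H2bc3 (1.12 ± 0.28), H2bc8 (0.96 ± 0.20), H4c6 (0.91 ± 0.25), the testis form H2bc1 (0.90 ± 0.21) and H2ac15 (0.83 ± 0.21). Replicate 1 lay within the range of the 5 C57BL/6J arrays in 36 members (68.2% of all probe sets) and above it in 17 (7.42% of all). Replicate 3 lay above it in 48 members (11.8% of all) and within it in 5. Without replicate 3, 0 members were called, and without replicate 1, 46. With both arrays, 47 members were higher at an unadjusted p under 0.05, as were 3.7% of all probe sets. In the same contrast 5 of 72 small nucleolar RNA probe sets were higher and 0 lower. Of 24 S phase genes 1 was higher, E2f1 (0.49), and of 7 T cell markers 1 was lower, Lef1 (-0.32). Their part here was not tested.

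MRL/MpJ, chosen for a contrast after its values were seen, had the highest strain mean in 34 of the 54 members. These include the 10 shared H3 and the 4 shared H4 sets, which are not separate evidence. The matching share of all probe sets is not given here. The MRL/MpJ arrays stood at 0.46 and 1.07 in the histone median. The second was higher than the first in 50 members (54.2% of all probe sets), by a median of 0.48. Against the other groups 39 members were higher and 0 lower (5.32% and 6% of all probe sets). The largest were H2ac4 (1.38 ± 0.22), H4c6 (1.25 ± 0.22), H4c4 (1.24 ± 0.18), H2bc3 (1.16 ± 0.24), H4c8 (1.05 ± 0.18) and H2ac15 (1.00 ± 0.18). Without replicate 2, which leaves 1 array, 2 members were called, H4c4 (1.08, adjusted p = 0.00698 with limma) and H1f5 (0.89, adjusted p = 0.0235), while H4c6 stood at 0.78 (adjusted p = 0.231). Of the small nucleolar RNA probe sets, 33 of 72 were higher in MRL/MpJ (median 0.60), with mean deviations of 0.43 and 0.77 on its arrays. Of the S phase genes 2 of 24 were higher and 2 lower, and of the mitosis genes 1 of 19 was higher. Whether these take part in the histone difference was not tested.

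At the low end, strains differed in which classes were low. BALB/cByJ, also chosen after its values were seen, had 27 members lower and 0 higher (4.02% and 3.64% of all probe sets). Its 6 shared H2B sets fell by 1.22 to 1.59 log2 units. On one of them its arrays read 1022 and 945, those of C57BL/6J 2806, 2308, 1893, 2754 and 2101, and those of MRL/MpJ 3751 and 6047. H2bc3 fell by 1.28 ± 0.24, with arrays at 141 and 127. The shared H3 sets had a median deviation of -1.0 from the mean over strains and the shared H4 sets one of -0.17. Both arrays were low, at -0.45 and -0.61 in the histone median, and without replicate 2, 18 members were called. Small nucleolar RNA stood at -0.09 and -0.18 in mean deviation on the BALB/cByJ arrays. In the contrast, 1 of 72 such probe sets was higher and 0 lower (median -0.14). Of the mitosis genes 4 of 19 were lower, including Mki67, a marker of cycling cells (-0.59 ± 0.18, adjusted p = 0.0353 in limma). Of the S phase genes 1 of 24 was lower. Their part in the histone difference was not tested.

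MSM/Ms, chosen in the same way, had 22 members lower and 0 higher (6.74% and 5.77% of all). H4c4 fell by 1.93 ± 0.18 log2 units and H4c6 by 1.18 ± 0.22. The shared sets had median deviations of -0.98 for H4, -0.58 for H3 and -0.31 for H2B. Its arrays stood at -0.57 and -0.05 in the histone median, and without replicate 1, 7 members were called. On these arrays small nucleolar RNA stood at -0.36 and -0.23 in mean deviation, with 11 of 72 probe sets lower and 1 higher in the contrast. In the same measure myeloid markers stood at 0.41 and 0.53 and NK cell markers at 0.42 and 0.45. Erythroid markers stood at -0.28 and -0.25 and T cell markers at -0.26 and -0.12. In the contrast, 3 of 9 myeloid markers were higher and 0 lower (median 0.12). Of 5 NK cell markers 1 was higher and 1 lower (median -0.15). Of 6 erythroid markers 1 was lower (median -0.05), as were 2 of 7 T cell markers (median -0.12). Of the mitosis genes 4 of 19 were lower, and of the S phase genes 3 of 24 were higher and 3 lower. Whether these take part in the histone values was not tested.

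In PWD/PHJ the classes lay on both sides of the mean. It had 15 members lower and 1 higher (5.71% and 10.4% of all). Its shared H4 sets had a median deviation of -1.04, the H3 sets -0.48 and the H2B sets 0.25, and H2bc3 was the member that rose (0.81 ± 0.24, arrays at 710 and 427). In H4c4, PWD/PHJ fell by 1.54 ± 0.18. Small nucleolar RNA stood at -0.26 and -0.02 in mean deviation on its arrays. NK cell markers stood at 0.83 and 0.73 and CD8 T cell markers at -0.54 and -0.92. In the contrast, 2 of 5 NK cell markers were higher and 0 lower (median 0.32), and 1 of 2 CD8 T cell markers was lower. Of the S phase genes 9 of 24 were higher and 1 lower (median 0.18), and of the mitosis genes 1 of 19 was lower. The part of these in the histone values was not tested. The order of strains thus differed between the H4 and H2B probe sets, as a description without a test of the difference.

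Other strains had fewer members past the threshold. Higher members numbered 11 in 129S1/SvImJ (3.71% of all probe sets), 11 in DBA2-titled (5.77%), 9 in A/J (2.7%), 9 in MA/MyJ (4.73%) and 8 in AKR/J (1.36%). Lower members numbered 8 in each of JF1/Ms (4.47%), NOR/LtJ (1.24%) and P/J (1.71%). Each of these contrasts shares the other groups' arrays.

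The 4 strains of other subspecies were compared with the remaining 36, with the strain as the replicate. The strains were taken as independent, although some are close relatives of each other, and kinship was not modelled. The standard errors and p-values of this contrast may therefore be too small. The limma fit called 0 members higher and 1 lower, where 4.96% of all probe sets were higher and 3.77% lower. The one called was a probe set shared by 12 H3 genes (-0.54 ± 0.18, adjusted p = 0.0466), and 23 members were lower and 0 higher at an unadjusted p under 0.05, which 7.93% and 11.6% of all probe sets passed in those directions. H4c4 differed by -1.22 ± 0.48 (adjusted p = 0.115) and H4c6 by -0.81 ± 0.27 (adjusted p = 0.0546). The median over members was -0.19, with 6 above 0, against 0.02 over all probe sets, of which 58.2% lay above 0. In the same contrast, 9 of 72 small nucleolar RNA probe sets were lower and 1 higher (median -0.23). Of 15 histone transcription and processing genes 1 was lower, Lsm11 (-0.47), and of 16 histone chaperones 1 was lower, Chaf1b (-0.35). Of 24 S phase genes 1 was higher, Pola1 (0.45), and 0 mitosis genes and 0 replacement histones were called. Among the cell markers, 1 of 5 NK cell genes was higher, Klrd1 (3.34), with a list median of -0.02. Of 9 myeloid genes 1 was higher, Lyz2 (2.91), with a list median of 0.10. Lower were 2 of 7 T cell genes (Cd3d and Cd3g), 1 of 2 CD8 T cell genes (Cd8b1) and 1 of 6 erythroid genes (Car2). Their part in the histone values was not tested. CAST/EiJ stood apart from the other 3 in the H4 class, with a median of 0.34 against -0.97 in MSM/Ms, -0.95 in PWD/PHJ and -0.74 in JF1/Ms.

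Genes that act with the histones had smaller spreads than the members both between strains and between replicates, except for the small nucleolar RNA listed beside them. Median replicate SDs ran from 0.14 to 0.17 in these lists and were 0.35 for small nucleolar RNA, beside 0.26 for members. Median intraclass correlations were 0.541 for S phase, 0.515 for mitosis, 0.436 for transcription and processing and 0.365 for chaperones. They were 0.484 for replacement histones and 0.442 for small nucleolar RNA, beside 0.549 for members. The median SD of strain means was 0.18 for S phase genes, 0.19 for mitosis genes, 0.17 for histone transcription and processing genes, 0.13 for histone chaperones, 0.19 for replacement histones, most of which are made throughout the cell cycle with poly(A) tails, and 0.38 for small nucleolar RNA. The F-test called 20 of 24 S phase genes, 13 of 19 mitosis genes and 11 of 15 transcription and processing genes. It called 10 of 16 chaperones, 7 of 8 replacement histones and 54 of 72 small nucleolar RNA probe sets, beside 47.6% of all probe sets. Except for small nucleolar RNA, each listed gene was read by its brightest probe set with that symbol alone. Members and all probe sets were not chosen by brightness, so these spreads and counts are not of like sets. Npat read 554 and 402 on the C57BL/10J arrays, and Slbp 317 and 324. Neither was called in C57BL/10J against the others (adjusted p = 1.00 and 0.795 in limma).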

How the data were processed

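RNA of sorted naive CD4 T cells was measured on 82 arrays in 40 strain groups. Affymetrix Power Tools and RMA are named, without versions, by the submitters' processing notes. The deposited values are linear intensity per probe set, normalized by the authors. Their log2 was used as it stood, without a filter. The number of arrays, mostly 2 a group, limits the precision. Each array is a pool of mice, so p-values measure the spread between pools. Those of the contrast between subspecies measure the spread between strain means instead. Symbols came from the platform annotation and promoters from RefSeq (GRCm38.p6). Probe sequences were not analysed here.

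A limma 3.58.1 model (R 4.3.3) held 1 coefficient per group and 42 residual degrees of freedom and gave the F-test and the contrasts. The subspecies contrast was fitted on strain means, taken as independent without a term for kinship between strains. Benjamini-Hochberg adjustment covered all 24922 probe sets, and the threshold was 0.05. The fit was tested on simulated data. Where an array left out leaves its group with 1, that array is assumed to vary like the other groups. Replicate and strain SDs and the intraclass correlation come from variance components. Members and lists were chosen with earlier results of these data known. Named members were the 8 with the largest intraclass correlation, the 8 with the largest replicate SD, the 8 with the largest difference between the C57BL/10J arrays, the highest and lowest level per class, and up to 6 per contrast and direction. Others, such as those with printed promoters, were chosen after their values were seen. Alternatives were quantile normalization, median centring, removal of the dimmest 40 percent, an offset of 32, another prior (trended, robust), array weights, a replicate block, only members with 1 symbol, 1 probe set per symbol and leaving out arrays.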

Additional observations from a re-analysis of the deposited data

How the results depend on the processing

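The F-test count of members stayed between 48 and 50 without each array in turn, and was 50 with the replicate block and 25 of the 30 members with 1 symbol. The replicate numbers are not taken to pair the arrays: over 36 strains numbered 1 and 2, the median correlation of deviations between strains was 0.000389, and 31.6% were over 0.1. Without each array in turn, the median replicate SD ran from 0.24 to 0.26, the strain SD from 0.36 to 0.40 and the intraclass correlation from 0.508 to 0.624, and the last was 0.442 over members with 1 symbol. Members higher in C57BL/10J than the other groups (19) ranged from 1 to 47 without each array, and were 10 with the replicate block and 1 without both C57BL/10J replicate 3 and MRL/MpJ replicate 2, a pair chosen after seeing the data. Against C57BL/6J (15), they ranged from 0 to 46, and were 8 with median centring, 9 with the block, 5 with array weights and 0 without that pair. Members higher in MRL/MpJ (39) ranged from 2 to 41, and were 4 with array weights, 16 over members with 1 symbol, 22 with 1 probe set per symbol and 5 without the pair. Members lower in MRL/MpJ (0) ranged from 0 to 1, and were 1 with quantile normalization and 1 with the block. Members lower in BALB/cByJ (27) ranged from 18 to 30, and were 9 over members with 1 symbol and 14 with 1 probe set per symbol. Members lower in MSM/Ms (22) ranged from 7 to 25, and were 14 with array weights, 7 over members with 1 symbol and 10 with 1 probe set per symbol. Members higher in MSM/Ms (0) ranged from 0 to 1, and were 1 with quantile normalization, 1 without both C57BL/10J arrays and 1 without the pair. Members lower in the 4 strains of other subspecies (1) ranged from 0 to 16 (16 without MSM/Ms replicate 2), and were 0 with quantile normalization, the trended prior, the offset, members with 1 symbol, 1 probe set per symbol or no C57BL/10J arrays, 5 with median centring, 10 without the dimmest 40 percent and 7 without the pair. Fewer members enter where only 1 symbol or 1 probe set per symbol is kept, and the cause of the other moves was not tested. Of the values of named members under the alternatives, 3654 kept their call, 66 kept their direction but missed the threshold, and 0 turned. Most of these values come from the 82 fits without 1 array, nearly all of which leave the contrasted strain whole. The total thus says little about single high arrays. In C57BL/10J against the other groups, without its replicate 3, H4c3 stood at 0.01, H4c6 at 0.18 and H2bc4 at 1.19. Shared probe sets read several genes at once, so they cannot say which gene moved, and the dimmest members, such as H2ac4 and H2ac8, lie near the low end of the array's signal.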
